A study of Mus musculus with 92 samples.

Results

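Messenger RNA of the MITF family of transcription factors and of a group of genes best known from osteoclasts was followed through mouse macrophages, their progenitors and cells taken from brain. The 10 genes are Mitf, Tfec, Tfeb, Tfe3, Gpnmb, Atp6v0d2, Ctsk, Acp5, Dcstamp and Ocstamp, out of 29956 named genes in the deposited table, and all 10 were found there by symbol. They were chosen by name after Gpnmb and Atp6v0d2 had been seen to be high in culture and low in brain-engrafted cells. The difference between cultured macrophages and cells from brain is therefore given as a description with no test, and nothing rests on it.

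The study compared conditionally immortalized progenitors with marrow as sources of macrophages and of microglia-like cells (MLCs), and used the first to follow loss of the RNA editing enzyme ADAR1, gene symbol Adar. RNA was sequenced in bulk in 92 libraries of 25 groups. All cells came from mice of the FVB strain. BM progenitors (lineage-depleted marrow, n = 3) and BM monocytes (isolated with a kit, n = 3) were taken fresh from wild-type animals. BMD macrophages (n = 3) were wild-type marrow after 7 days in M-CSF, the ligand of the receptor CSF1R. ER-Hoxb8 cells are marrow progenitors of a mouse carrying Cas9 that hold an estrogen-regulated Hoxb8, a homeobox factor that blocks maturation, and were kept in GM-CSF with estradiol. They were sampled at day 0, at day 4 and at day 7 of M-CSF without estradiol (n = 3 each), and the last are called ER-Hoxb8 macrophages. BMD MLCs (n = 6) and ER-Hoxb8 MLCs (n = 6) are donor cells re-isolated from brains of Csf1r-/- hosts, which lack microglia of their own, after injection in the first days of life. Microglia (n = 9) came from uninjected wild-type mice. The labels give no age at harvest, and the sort on CD45 and CD11B used for cells from brain also takes monocytes and neutrophils.

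For the editing enzyme, ER-Hoxb8 cells heterozygous for Cas9 carried sgRNA 1 or sgRNA 2 against Adar, or a non-targeting guide (NTC), as sorted populations and not single clones. Progenitors (n = 3 for each guide) and macrophages after 7 days (n = 3 for sgRNA 1, n = 3 for NTC, n = 5 for sgRNA 2) were profiled. A further 33 libraries held NTC macrophages and sgRNA 1 macrophages, labelled KO, grown for 7 days with baricitinib, an inhibitor of Janus kinases, at 0, 0.0006, 0.016, 0.4 or 10 uM (n = 3 or 4 a group). The protocol text gives other values for 2 of these doses, so the doses here are those of the sample titles. These libraries were sequenced apart from the rest.

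MITF, TFEC, TFEB and TFE3 are related helix-loop-helix leucine zipper proteins that bind DNA as dimers at E-box motifs. When nutrients are plentiful, kinase signalling from the lysosome holds them in the cytoplasm; when it drops they enter the nucleus and raise genes of lysosomes and autophagy. In osteoclasts, cells of the macrophage lineage that dissolve bone, MITF and its relatives work beside NFATc1 on genes for acid secretion, matrix digestion and cell fusion, and GPNMB is a glycoprotein that macrophages make under lysosomal or lipid load.

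Each value below is a log2 CPM. This is a count scaled to the total of its library, as adjusted by the authors' normalization (TMM), and put on the log2 scale. A library's lowest value marks genes with no reads, and libraries that share it were normalized together. Of the 6 sets so defined, 1 held fresh marrow with ER-Hoxb8 day 0 and day 4 (12 libraries, lowest value -4.34) and 1 held cultured macrophages with cells from brain (27 libraries, -3.62). NTC and sgRNA 1 shared another (11 libraries, -3.43), sgRNA 2 had its own (8 libraries, -3.56), and so had the baricitinib libraries (33 libraries, -2.78). NTC macrophage replicate 2 stood alone (-3.09) and was left out of the fits, which leaves n = 2 there. The adjusted library totals, which differ from the raw counts, ran from 6.16 to 52.8 M (median 22.8 M). At these totals 3 counts, taken as the floor of detection, correspond to between 0.0568 and 0.487 CPM. That floor covers counting error only. Values are tested only within a set, except in an alternative fit that adds NTC macrophage replicate 2. Where values of several sets stand side by side, they are descriptions.

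The labels were checked against marker genes. In BMD and ER-Hoxb8 macrophages all 5 macrophage markers in the table (Csf1r, Emr1, Cd68, Mertk, Fcgr1) were above 1 CPM, summing to 6551 to 8590 CPM and 6226 to 9193 CPM, with Cd68 the most abundant. The osteoclast list gave a different picture. Calcr, the calcitonin receptor of mature osteoclasts, was at or below 3 counts in all libraries of all 25 groups, and Oscar was so in ER-Hoxb8 macrophages. The summed osteoclast list, which contains 4 of the 10 genes, was 114 to 160 CPM in BMD macrophages and 119 to 180 CPM in ER-Hoxb8 macrophages, with Nfatc1 the most abundant at a mean of 58.9 and 65.2 CPM. BM monocytes, in another set and so not compared with these, held 129 to 376 CPM on the same list. Of the 9 osteoclast markers, 6, 6 and 5 were above 1 CPM in the BMD macrophage libraries and 5, 4 and 5 in ER-Hoxb8 macrophages. The list thus holds both absent and present markers, and which cells carry them was not tested. The word osteoclast is used here for where these genes are best known and names no cell in these cultures. Of the 5 melanocyte markers, checked because MITF and GPNMB also act in pigment cells, Dct and Tyrp1 were at or below 3 counts in all libraries. Mlana had a mean of 4.83 CPM in BMD macrophages, where the list, Pmel and Tyr included, summed to 0.244 to 11.1 CPM; it reached no more than 2.94 CPM in any other group.

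Some libraries stood apart from their groups. BMD macrophage replicate 3 had a progenitor list (Kit, Cd34, Flt3) of 162 CPM against 18.8 and 2.88 CPM in the other 2. Its dendritic cell list was 8.35 CPM against 205 and 178 CPM. Its library name is of a series wBM, and those of the other 2 are of a series Mac. ER-Hoxb8 day 0 replicate 3 had a neutrophil list of 2771 CPM against 53.1 and 46.2 CPM, while day 0 replicate 2 had the highest macrophage list at 4035 CPM against 1867 and 431 CPM. Microglia replicates 8 and 9 had the lowest and highest macrophage lists of their group, 2591 and 17854 CPM. Both are named YSWT, where the other microglia are named WT. What sets these named series apart is not labelled. The ER-Hoxb8 MLCs came from differently named series of 3 libraries each, GFPHox (the first, replicates 1 to 3) and WTHox (the second), whose values are given apart where they part. All 6 carry the genotype label WT, whereas day 0, day 4 and day 7 cells are labelled Cas9 het; whether the series differ in a GFP allele is not labelled.

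The Adar level was read as a check of the guides. In progenitors it was 4.36, 4.23 and 4.24 with sgRNA 1 and 4.20, 3.42 and 4.28 with NTC. In macrophages it was 6.96, 7.15 and 7.01 with sgRNA 1, above the 5.73 and 5.67 of NTC (5.86 in replicate 2, from another set). In the baricitinib set at 0 uM it was 5.12, 4.94 and 4.69 in NTC and 7.42, 6.52 and 6.37 in KO. It was thus not lower with the guide in these groups. At 10 uM it was, with 1.55, 2.15, 2.91 and 2.03 in KO and 3.70, 3.64 and 3.22 in NTC. A guide can disrupt a protein and leave its RNA in place, so the KO label is used as given. With sgRNA 2 the Adar level was 4.35, 4.56 and 4.36 in progenitors and 6.99 to 7.03 in macrophages. No NTC library shares that set, so these values could not be set against NTC.

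Among cultured macrophages and cells from brain, the factor Mitf was 6.39, 6.80 and 5.40 in BMD macrophages and 6.18, 6.87 and 7.42 in ER-Hoxb8 macrophages. It ran from 4.29 to 5.01 in BMD MLCs (median 4.73), from 4.11 to 5.53 in ER-Hoxb8 MLCs (median 4.86) and from 3.78 to 4.71 in microglia (median 4.49). The ranges of the 3 brain groups overlapped, and BMD macrophage replicate 3 lay just under the highest ER-Hoxb8 MLC. Tfec, the family member most restricted to macrophages, was 2.43, 3.25 and 3.74 in BMD macrophages and 3.97, 3.76 and 2.10 in ER-Hoxb8 macrophages. It ran from 1.61 to 4.09 in BMD MLCs (median 2.90), from 2.54 to 4.74 in ER-Hoxb8 MLCs (median 3.22) and from 0.78 to 3.61 in microglia (median 1.30), so that no group was clear of the others.

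Tfeb, the best studied inducer of lysosome genes, was 5.10, 6.08 and 3.52 in BMD macrophages and 4.80, 4.57 and 6.17 in ER-Hoxb8 macrophages. It ran from 1.81 to 3.36 in BMD MLCs (median 2.68), from 1.50 to 3.69 in ER-Hoxb8 MLCs (median 2.62) and from the lowest value, in replicate 8, to 4.72 in microglia (median 2.68). Tfe3, its close relative, was 7.28, 7.60 and 7.76 in BMD macrophages and 7.16, 7.22 and 5.29 in ER-Hoxb8 macrophages. It was 5.87 to 6.97 in BMD MLCs (median 6.49), 4.72 to 6.69 in ER-Hoxb8 MLCs (median 5.75) and 5.72 to 8.23 in microglia (median 6.83), with wide overlap between culture and brain.

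Gpnmb, for the glycoprotein, was 13.59, 14.29 and 8.48 in BMD macrophages and 13.90, 13.68 and 14.47 in ER-Hoxb8 macrophages. In BMD MLCs it was at the lowest value in 5 libraries and -2.33 in replicate 5, and in microglia it ran from -2.22 to -0.53 (median -1.41). In ER-Hoxb8 MLCs it was 0.57, -3.62, 2.27, -3.62, 4.52 and 4.51. Gpnmb was thus not absent from brain-engrafted cells: 4 of 6 ER-Hoxb8 MLC libraries held it well above 3 counts. The edge of the choice lay between 8.48, the lowest cultured value, and 4.52, the highest in brain.

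Atp6v0d2 encodes the d2 subunit of the vacuolar proton pump (V-ATPase), the form of that subunit typical of osteoclasts. It was 9.18, 9.47 and 2.70 in BMD macrophages and 8.98, 8.20 and 10.51 in ER-Hoxb8 macrophages. All 6 ER-Hoxb8 MLC libraries were at or below 3 counts, while BMD MLCs, 4 of 6 of them above 3 counts, ran to 1.62 (median -0.48) and microglia to 0.56 (median -2.53). Against ER-Hoxb8 MLCs at that floor the mean CPM was at least 2469-fold higher in BMD macrophages and at least 4301-fold higher in ER-Hoxb8 macrophages, or 2281-fold without replicate 3 of the latter. Between 2.70, the lowest cultured value, and 1.62, the highest in brain, the gap was narrow, and both edges of Gpnmb and Atp6v0d2 in culture came from BMD macrophage replicate 3. In bulk RNA, fewer cells that make a transcript and less of it per cell cannot be told apart.

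Ctsk, for cathepsin K, the main collagen-digesting protease of osteoclasts, was 3.47, 4.65 and 0.21 in BMD macrophages and 3.47, 3.64 and 6.41 in ER-Hoxb8 macrophages. In brain it reached 2.18 in BMD MLCs (median -2.39), 0.45 in microglia (median -2.83) and 2.62 in ER-Hoxb8 MLC replicate 6, the other 5 of that group being at the lowest value. Acp5, for tartrate-resistant acid phosphatase, was 5.79, 5.81 and 4.72 in BMD macrophages but 0.07, 2.45 and -3.62 in ER-Hoxb8 macrophages. It ran from 3.45 to 4.94 in BMD MLCs (median 4.26), from -3.58 to 4.90 in ER-Hoxb8 MLCs (median 2.62) and from -2.32 to 2.50 in microglia (median 1.06). Acp5 was therefore high in BMD macrophages and BMD MLCs alike and did not follow the line between culture and brain.

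Dcstamp and Ocstamp encode membrane proteins needed for the fusion of osteoclast precursors. Dcstamp was 3.73, 3.23 and 1.69 in BMD macrophages and 0.62, -1.34 and 0.29 in ER-Hoxb8 macrophages. It ran from 0.81 to 4.30 in BMD MLCs (median 1.35) and from the lowest value to 0.38 in microglia (median -0.80). In ER-Hoxb8 MLCs it was 3.55, 1.51 and 4.03 in the first series and at the lowest value in all 3 libraries of the second, so that group had no single level. Ocstamp ran from 0.48 to 1.22 in BMD MLCs (median 0.61), from -0.24 to 3.18 in ER-Hoxb8 MLCs (median 0.77) and from -1.42 to 0.35 in microglia (median -0.18). In cultured macrophages it was no higher than -0.04.

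**Figure D1:**
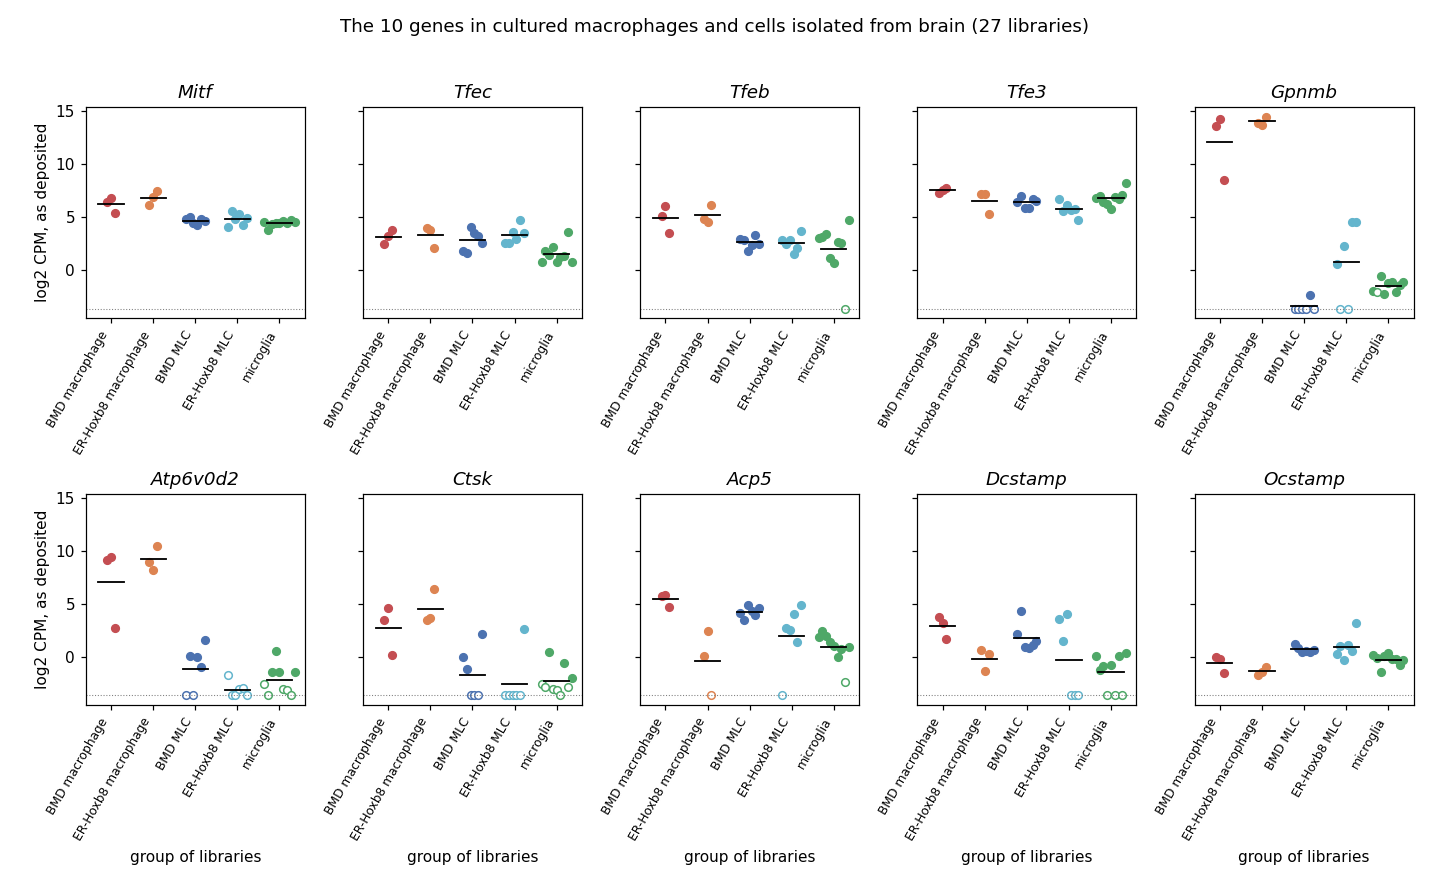
Log2 CPM of each of the 10 genes in the 27 libraries of cultured macrophages and cells from brain, 1 point a library, with a bar for the mean, open circles for libraries at or below 3 counts and a dotted line at the lowest value. Gpnmb lies between 8.48 and 14.47 in culture and no higher than 4.52 in brain, while Acp5 is high in BMD macrophages and BMD MLCs.

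The promoters of Gpnmb and Acp5 are shown because these genes ran opposite ways between fresh marrow and ER-Hoxb8 culture (Acp5 was high in BMD macrophages), and theirs alone among the genes searched held a motif. RefSeq start windows on GRCm38.p6, 250 bases before to 50 after the start, were available for 7 of the 10 genes (14 windows), Atp6v0d2, Dcstamp and Ocstamp having no entry. Both strands were searched for the E-boxes CACGTG and CATGTG, for their longer MITF forms TCACGTGA (which contains CACGTG) and TCATGTGA (which contains CATGTG), and for the AP-1 motif TGAGTCA, whose reverse complement is TGACTCA. Among 32851 windows of the same length, CACGTG was in 7.15%, CATGTG in 14.2%, TCACGTGA in 0.974%, TCATGTGA in 0.986% and TGAGTCA or its complement in 5.20%. Of the 14 windows 2 held a match. Gpnmb, at chr6:49036268-49036567 on the plus strand, has TGACTCA, in capitals, with its first base 9 bases after the start. The third Acp5 window, at chr9:22130549-22130848 and printed along the minus strand, has TCACATGA, the reverse complement of TCATGTGA, from base -91. A match describes the letters and does not show binding.
Gpnmb: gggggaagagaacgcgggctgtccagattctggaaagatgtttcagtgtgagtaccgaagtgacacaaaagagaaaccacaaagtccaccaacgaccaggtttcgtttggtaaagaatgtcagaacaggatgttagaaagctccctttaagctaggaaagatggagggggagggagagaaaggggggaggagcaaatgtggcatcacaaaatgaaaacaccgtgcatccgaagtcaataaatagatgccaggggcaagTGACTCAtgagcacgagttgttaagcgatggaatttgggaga
Acp5: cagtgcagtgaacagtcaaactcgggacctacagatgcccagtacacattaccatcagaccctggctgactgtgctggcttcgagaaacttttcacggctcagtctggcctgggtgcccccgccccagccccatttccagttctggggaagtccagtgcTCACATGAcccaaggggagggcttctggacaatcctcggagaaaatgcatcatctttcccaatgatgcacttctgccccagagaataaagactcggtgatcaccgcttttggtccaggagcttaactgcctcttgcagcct

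Cultured macrophages of the 2 sources were set against each other to ask whether the immortalized progenitors give the same cell as marrow. Of the 10 genes, all tested, limma called 1 at an adjusted p (Benjamini-Hochberg over all genes tested) below 0.05, where 1.96% of 12518 genes were called. It was Acp5, lower in ER-Hoxb8 macrophages by a log2 fold change of -5.80 (SE 1.49, adjusted p 0.0340), with no overlap of the 3 and 3 libraries. That call rests on 5 of the 6 libraries: without BMD macrophage replicate 1, 2 or 3 the adjusted p was 0.138, 0.113 or 0.0714, and without ER-Hoxb8 macrophage replicate 1 or 3 it was 0.0763 or 0.378, the last with a change of -4.18. With only these 6 libraries fitted Acp5 did not reach the filter on low values and was not tested. For Gpnmb (1.90, SE 1.59) and Atp6v0d2 (2.11, SE 1.41) the spread within BMD macrophages was wider than the difference, and neither passed. Without BMD macrophage replicate 3 these differences were 0.08 and -0.10. The dendritic cell list, led by Itgax, was 205, 178 and 8.35 CPM in BMD macrophages and 11.8 to 12.6 CPM in ER-Hoxb8 macrophages, and its part in the Acp5 value was not tested.

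The MLCs were compared with microglia to ask how close each donor comes to the resident cell; both comparisons share the 9 microglia. In BMD MLCs limma called 2 of 10 genes, against 20.5% of all genes. Acp5 was higher by 3.33 (SE 0.96, adjusted p 0.0128) and Dcstamp by 3.27 (SE 1.09, adjusted p 0.0328), each with no overlap of the 6 and 9 libraries. With replicate as a block Acp5 did not pass (2.77, adjusted p 0.0719) and Tfec did (1.41, adjusted p 0.0490). The Dcstamp call was lost without BMD MLC replicate 1 (adjusted p 0.0622), 2 (0.101) or 6 (0.0512) and without microglia replicate 4 (0.0611), 6 (0.0603) or 8 (0.0521). Tfec, higher by 1.24 with an adjusted p of 0.0692, passed without BMD MLC replicate 1 (0.0494) or 2 (0.0390) or microglia replicate 8 (0.0125). Gpnmb, Atp6v0d2 and Ctsk reached the filter on low values only through other groups of the set. Dcstamp and Ocstamp reached it mostly through groups where they are higher than in microglia, BMD MLCs among them. Any call of these 2 genes here is a description. With only these groups fitted, 3 of the 7 others were called, where 24.1% of all genes were.

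In ER-Hoxb8 MLCs limma called 3 of 10 genes against microglia, where 33.9% of all genes were called. With only these groups fitted it was 2 of 6, with 28.5% of all genes, as Gpnmb, Atp6v0d2, Ctsk and Dcstamp did not reach the filter there. Tfec was higher by 1.76 (SE 0.48, adjusted p 0.00542), Tfe3 lower by -1.01 (SE 0.34, adjusted p 0.0201) and Ocstamp higher by 1.23 (SE 0.43, adjusted p 0.0256). For each of the 3 the ranges overlapped. Ocstamp passed the filter on low values mostly through MLCs, where it is high, and Dcstamp mostly through groups other than microglia. Their calls here are descriptions. Tfe3 was not called without ER-Hoxb8 MLC replicate 6 (-0.80, adjusted p 0.0718), nor Ocstamp without that library (0.79, 0.102) or microglia replicate 3 (0.0532). With replicate as a block Tfe3 (-0.73, adjusted p 0.0846) and Ocstamp (1.16, 0.0665) did not pass, and with array weights neither did (0.105 and 0.0951). Ocstamp was also lost with only these groups fitted (0.0802). Acp5, not called, passed without ER-Hoxb8 MLC replicate 1 (2.19, adjusted p 0.0299) but was -0.50 with array weights. With the first series of 3 ER-Hoxb8 MLCs alone none of the 3 was called: Tfec was 1.35 (adjusted p 0.101), Tfe3 -0.64 (0.284) and Ocstamp 0.60 (0.346), while Dcstamp passed at 4.48 (7.59e-04). With the second series alone all 3 were called, and so was Acp5 (2.52, adjusted p 0.0437), which was -0.37 with the first. Because the level of Gpnmb in brain helped to choose the genes, and it was not testable with these groups alone, no test of it is given here.

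The 2 kinds of MLC were compared directly as well. Limma called 1 of 10 genes, with 15.2% of all genes called. It was Gpnmb, higher in ER-Hoxb8 MLCs, with ranges overlapping through the 2 libraries at the lowest value. No fold change is given, as 5 of 6 BMD MLC libraries are at the lowest value. Gpnmb passed the filter on low values only through cultured macrophages and was not tested with the MLCs fitted alone. Its level in brain helped to choose it, so nothing rests on this call. Acp5 (-2.26, adjusted p 0.154) and Dcstamp (-2.11, adjusted p 0.248) were lower on average and did not pass. Acp5 passed with the first series alone (-3.70, adjusted p 0.0409), and Dcstamp with the second (adjusted p 4.20e-04), where all 3 ER-Hoxb8 MLCs are at the lowest value. With the first series Dcstamp was higher than in BMD MLCs (1.21) and not called.

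Markers of other cells moved with these groups, and the microglia list was lower in every MLC library than in any microglia library. The dendritic cell list was 15.1 to 37.1 CPM in BMD MLCs, 25.1 to 110 CPM in ER-Hoxb8 MLCs and 15.3 to 25.1 CPM in microglia. The macrophage list was 3759 to 6170 CPM, 1568 to 5749 CPM and 2591 to 17854 CPM in that order. All 7 neutrophil markers were above 1 CPM in every BMD MLC library, summing to 4098 to 31831 CPM with Ngp the most abundant. The same sum was 230 to 40517 CPM in ER-Hoxb8 MLCs and 404 to 5777 CPM in microglia. The 5 markers of border macrophages, led by Mrc1, summed to 1495 to 2254 CPM in BMD MLCs, 2.54 to 1019 CPM in ER-Hoxb8 MLCs and 11.1 to 106 CPM in microglia. Quantile scaling moved the median of all genes by -0.11 in BMD MLCs against microglia and by 0.18 between the MLCs. The 4 B and T cell markers, led by Cd3d, summed to 5.58 to 89.8 CPM, 9.46 to 134 CPM and 2.01 to 19.1 CPM in the same order. What part these cells had in the values of any of the 10 genes was not tested.

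Fresh marrow and early culture form the next set. Mitf was 2.24, 2.25 and 2.42 in BM progenitors, 3.71, 4.12 and 3.85 in BM monocytes, 5.02, 6.33 and 3.19 at ER-Hoxb8 day 0 and 5.69, 6.23 and 6.15 at day 4. Tfec was 2.69, 3.75 and 3.41 in BM progenitors, 5.25, 5.22 and 5.66 in BM monocytes, 7.57, 4.48 and 7.84 at day 0 and 3.66, 4.63 and 3.18 at day 4. The pair thus stood in a different order: on average Mitf was highest at day 4 and Tfec at day 0, where replicate 2 lay at the level of day 4. Tfeb was 2.18 to 3.49 in BM progenitors, 4.44 to 4.67 in BM monocytes, 2.76 to 5.40 at day 0 and 4.30 to 5.31 at day 4. Tfe3 was 4.44 to 4.67, 5.37 to 5.84, 4.70 to 6.97 and 6.33 to 6.63 in that order, so that day 0 spanned most of the other groups for both.

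Gpnmb was 4.97, 4.77 and 4.23 in BM progenitors and 4.97, 4.76 and 4.49 in BM monocytes, which could not be separated. At day 0 it was 12.98, 13.30 and 7.25, and at day 4 it was 14.35, 13.27 and 10.82. At day 0, replicates 1 and 2, where Gpnmb was high, had macrophage lists of 1867 and 4035 CPM. Replicate 3 had 431 CPM. In other sets, and so as a description, guide-carrying ER-Hoxb8 progenitors averaged 7.80 (NTC), 8.71 (sgRNA 1) and 8.86 (sgRNA 2). The part of maturing cells in the day 0 level was not tested. Atp6v0d2 was -0.08, 0.24 and -0.09 in BM progenitors, 1.33, 0.80 and 0.13 in BM monocytes, 8.78, 7.62 and 1.38 at day 0 and 8.37, 7.78 and 4.37 at day 4, with replicate 3 again low. Ctsk reached 0.90 in BM progenitors, 2.85 in BM monocytes, 4.54 at day 0 and 4.54 at day 4. All day 4 libraries, at 3.45 or more, lay above both marrow groups, and the other groups overlapped. Acp5 stood the other way: 4.93, 5.71 and 5.79 in BM progenitors and 4.11, 5.00 and 4.02 in BM monocytes, but -0.69, 2.58 and 1.43 at day 0 and 1.07, 2.40 and -0.16 at day 4. Dcstamp was at or below 3 counts in all BM monocytes, and neither it nor Ocstamp was abundant enough to be tested, which left 8 of the 10 genes.

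**Figure D2:**
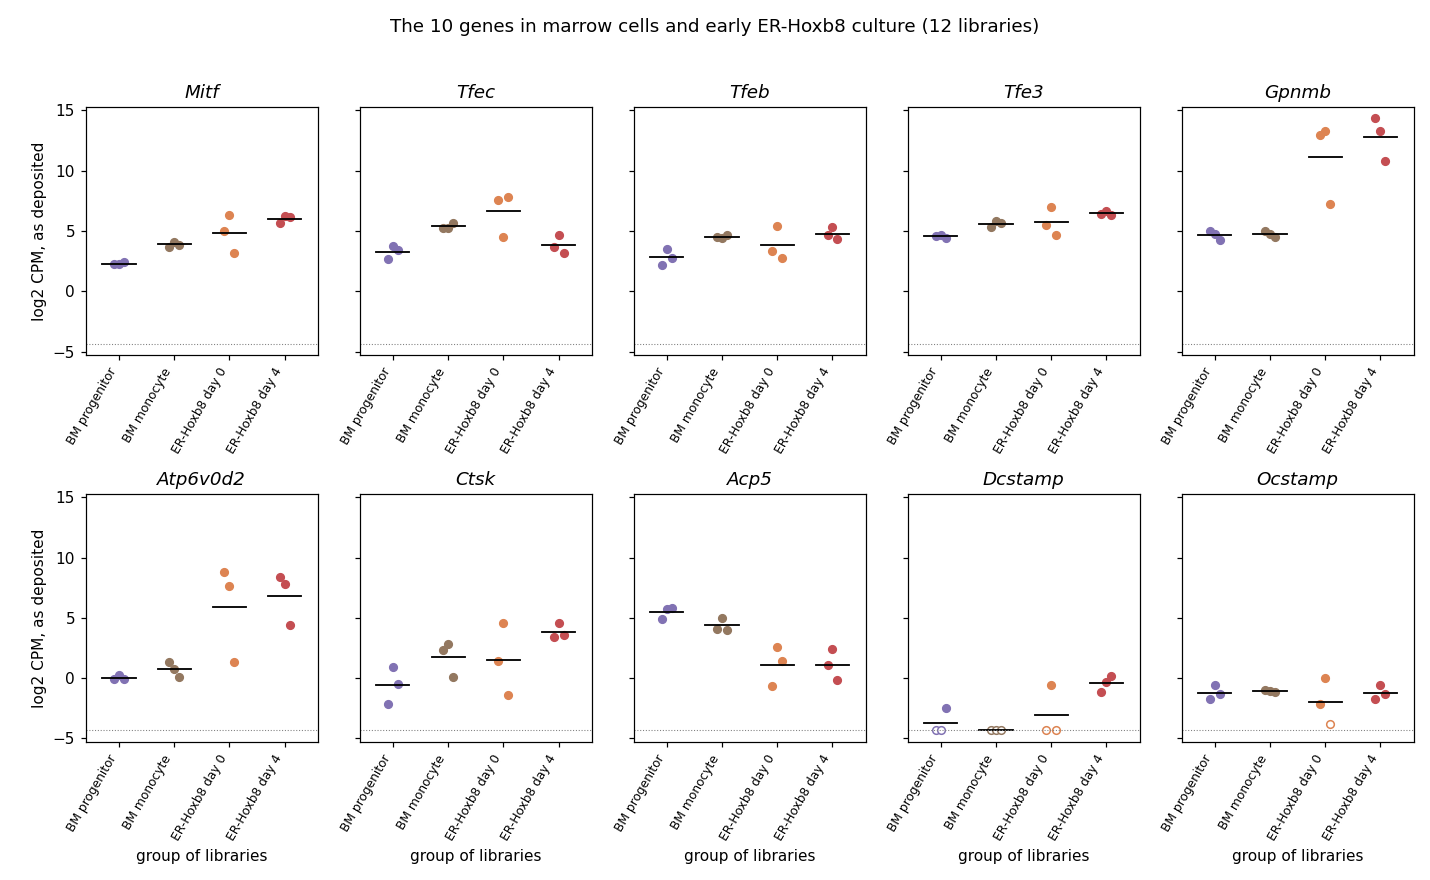
Log2 CPM of each of the 10 genes in the 12 libraries of fresh marrow and early ER-Hoxb8 culture, 1 point a library, with a bar for the mean, open circles at or below 3 counts and a dotted line at the lowest value. Gpnmb is 4.23 to 4.97 in both marrow groups and 7.25 or more in culture, and Acp5 runs the other way.

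Day 0, labelled as progenitors, was compared with BM progenitors to ask how these cultured cells differ from fresh ones. Limma called 5 of 8 genes, with 25.5% of 12056 genes called. The 5 include Gpnmb and Atp6v0d2, whose height in culture helped to choose them, so this count is no test of the group. Mitf was higher by 2.54 (SE 0.59, adjusted p 0.00801) and Tfec by 3.35 (SE 0.74, adjusted p 0.00607), while Acp5 was lower by -4.37 (SE 0.79, adjusted p 0.00187), each without overlap. Gpnmb (6.52, SE 1.34, adjusted p 0.00398) and Atp6v0d2 (5.91, SE 1.58, adjusted p 0.0172) also passed, but as their height in culture helped to choose them these are descriptions. Without day 0 replicate 3 all 8 were called, with 35.8% of all genes, adding Tfeb (1.58, adjusted p 0.0488), Tfe3 (1.65) and Ctsk (3.57). Atp6v0d2 was lost without BM progenitor replicate 1 (adjusted p 0.0538) or 3 (0.0551) or day 0 replicate 1 (4.48, adjusted p 0.0720). With only these groups fitted, and 16.8% of all genes called, Mitf (adjusted p 0.0640) and Atp6v0d2 (0.0673) did not pass. Quantile scaling moved the median of all genes by 0.12 here, from -0.08 to 0.05, and the share of called genes that were higher from 44.4% to 55.0%. The macrophage list was 431 to 4035 CPM at day 0 and 125 to 175 CPM in BM progenitors, and the neutrophil list 46.2 to 2771 CPM and 6534 to 22463 CPM. In the same order the progenitor list was 10.7 to 33.1 CPM and 242 to 453 CPM, and the dendritic cell list 2.55 to 14.8 CPM and 36.2 to 38.0 CPM. B and T cell markers summed to 0.583 to 0.779 CPM and 78.3 to 495 CPM. The part of these cells in the values was not tested. In other sets, guide-carrying ER-Hoxb8 progenitors averaged 2.33 to 2.94 for Mitf, 8.44 to 8.97 for Tfec and 0.49 to 2.58 for Atp6v0d2. At day 0 the means were 4.84, 6.63 and 5.93.

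Between BM monocytes and BM progenitors limma called 0 of 8 genes, with 13.8% of all genes called. An unadjusted p below 0.05 was found for 3657 of 12056 genes, among them 4 of the 8, the MITF family. Their differences were 1.58 for Mitf, 2.09 for Tfec, 1.73 for Tfeb and 1.04 for Tfe3, with adjusted p from 0.0726 to 0.139 and no overlap between the groups. With only these groups fitted all 4 passed at the same differences (adjusted p 0.00145 to 0.00598), and Acp5 too (-1.10, 0.0359), with 34.1% of all genes called. Array weights called those 5 and Ctsk (2.38, adjusted p 0.0138), with 43.6% of all genes. Marker lists differed here too. The macrophage list was 1120 to 1366 CPM in BM monocytes and 125 to 175 CPM in BM progenitors. In the same order the progenitor list was 77.6 to 127 CPM and 242 to 453 CPM. The dendritic cell list was 12.8 to 22.3 CPM and 36.2 to 38.0 CPM. B and T cell markers summed to no more than 35.4 CPM against 78.3 to 495 CPM, while the neutrophil lists overlapped. Their part in the values was not tested. Between day 4 and day 0 limma called 0 of 8, with 0% of all genes called; 1 of the 8, Tfec at -2.81, and 1129 genes in all had an unadjusted p below 0.05. Without day 0 replicate 2, the library with the highest macrophage list, 5 were called, with 11.1% of all genes: Mitf (1.92, adjusted p 0.0216), Tfec (-3.88, adjusted p 3.07e-04), Tfeb (1.68), Tfe3 (1.37) and Ctsk (3.81). The counts of 0 thus do not show that these genes were level over the first days.

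With guides, the step from progenitor to macrophage could be read within a set and in tight replicates. Tfec was 9.09, 9.04 and 8.79 in NTC progenitors and 2.15 and 1.88 in NTC macrophages, and replicate 2, from another set, was 1.61. With sgRNA 1 it was 9.02, 8.94 and 8.73 in progenitors and 4.85, 3.81 and 3.90 in macrophages. With sgRNA 2 it was 8.54, 8.41 and 8.37 in progenitors and 3.30, 3.02, 3.16, 3.03 and 2.95 in macrophages. Tfec was therefore high in all 9 progenitor libraries and low in all macrophages, and the sgRNA 1 macrophages lay above NTC.

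Mitf took the opposite course. It was 2.44, 2.36 and 2.19 in NTC progenitors and 6.61 and 6.76 in NTC macrophages, and 2.55, 2.35 and 2.38 with 6.32, 6.14 and 6.21 for sgRNA 1. For sgRNA 2 it was 2.83, 2.83 and 3.15 in progenitors and 6.51, 6.45, 6.41, 6.43 and 6.39 in macrophages. Tfeb was 1.62, 1.94 and 2.02 in NTC progenitors, 4.13 and 4.02 in NTC macrophages, 2.36, 2.32 and 2.11 in sgRNA 1 progenitors and 2.74, 3.31 and 3.46 in sgRNA 1 macrophages. All 3 sgRNA 1 macrophages were thus below both NTC macrophages for Tfeb, and for Mitf too. Tfe3 was 3.33 to 4.22 in NTC progenitors, 6.50 and 6.78 in NTC macrophages, 3.76 to 4.05 in sgRNA 1 progenitors and 5.96 to 6.46 in sgRNA 1 macrophages.

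Gpnmb was 8.27, 7.59 and 7.53 in NTC progenitors, 13.67 and 13.49 in NTC macrophages, 8.76, 8.76 and 8.61 in sgRNA 1 progenitors and 13.68, 14.62 and 14.45 in sgRNA 1 macrophages. With sgRNA 2 it was 8.92, 8.86 and 8.79 in progenitors and 14.39, 14.04, 14.17, 14.25 and 14.05 in macrophages. Every macrophage library lay above every progenitor library of its set. Atp6v0d2 was 4.25, 1.69 and 1.81 in NTC progenitors, 6.77 and 6.75 in NTC macrophages, 2.56, 1.77 and 1.55 in sgRNA 1 progenitors and 6.46, 7.30 and 7.42 in sgRNA 1 macrophages. Ctsk was -1.67, -1.75 and -1.93 in NTC progenitors and 4.19 and 4.14 in NTC macrophages; all sgRNA 1 progenitors were at or below 3 counts and sgRNA 1 macrophages 3.26, 3.65 and 3.28. Acp5, Dcstamp and Ocstamp did not pass the filter of 1 CPM in these sets and were not tested; in sgRNA 2 macrophages the mean CPM of Dcstamp was at least 5.26-fold higher than the floor that held all its progenitors.

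Limma called all 7 tested genes between NTC macrophages and NTC progenitors, with 71.8% of 11008 genes called; 7 of 7 between sgRNA 1 macrophages and progenitors, with 71.3%; and 7 of 7 for sgRNA 2, with 81.3% of 10698 genes. With so many genes called the counts say little, and the sizes say more. Tfec fell by 6.96 in NTC (SE 0.26, adjusted p 9.45e-10), by 4.71 in sgRNA 1 and by 5.35 in sgRNA 2. Mitf rose by 4.35 (SE 0.14, adjusted p 3.51e-10), 3.79 and 3.50 in the same order, and Tfe3 by 2.76, 2.32 and 1.86. Tfeb rose by 2.22, 0.91 (adjusted p 0.00229) and 2.28. Gpnmb rose by 5.78, 5.54 and 5.32, and Atp6v0d2 by 4.18, 5.10 and 6.73. Ctsk rose by 5.95 in NTC and 4.42 in sgRNA 2, and in sgRNA 1 its mean CPM was at least 89.1-fold higher in macrophages. Ctsk was below 1 CPM in all these progenitors and passed the filter only through macrophages, so its calls are descriptions. None of the calls for the 7 genes was lost when any 1 library was left out. Ctsk in NTC was not tested with only its groups fitted, where 2 macrophage libraries are too few for the filter. The neutrophil list, led by Mpo, summed to 16874 to 25160 CPM in NTC progenitors and 15.7 and 10.8 CPM in NTC macrophages 1 and 3, as the macrophage list went from 210 to 287 CPM up to 8799 and 7829 CPM.

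**Figure D3:**
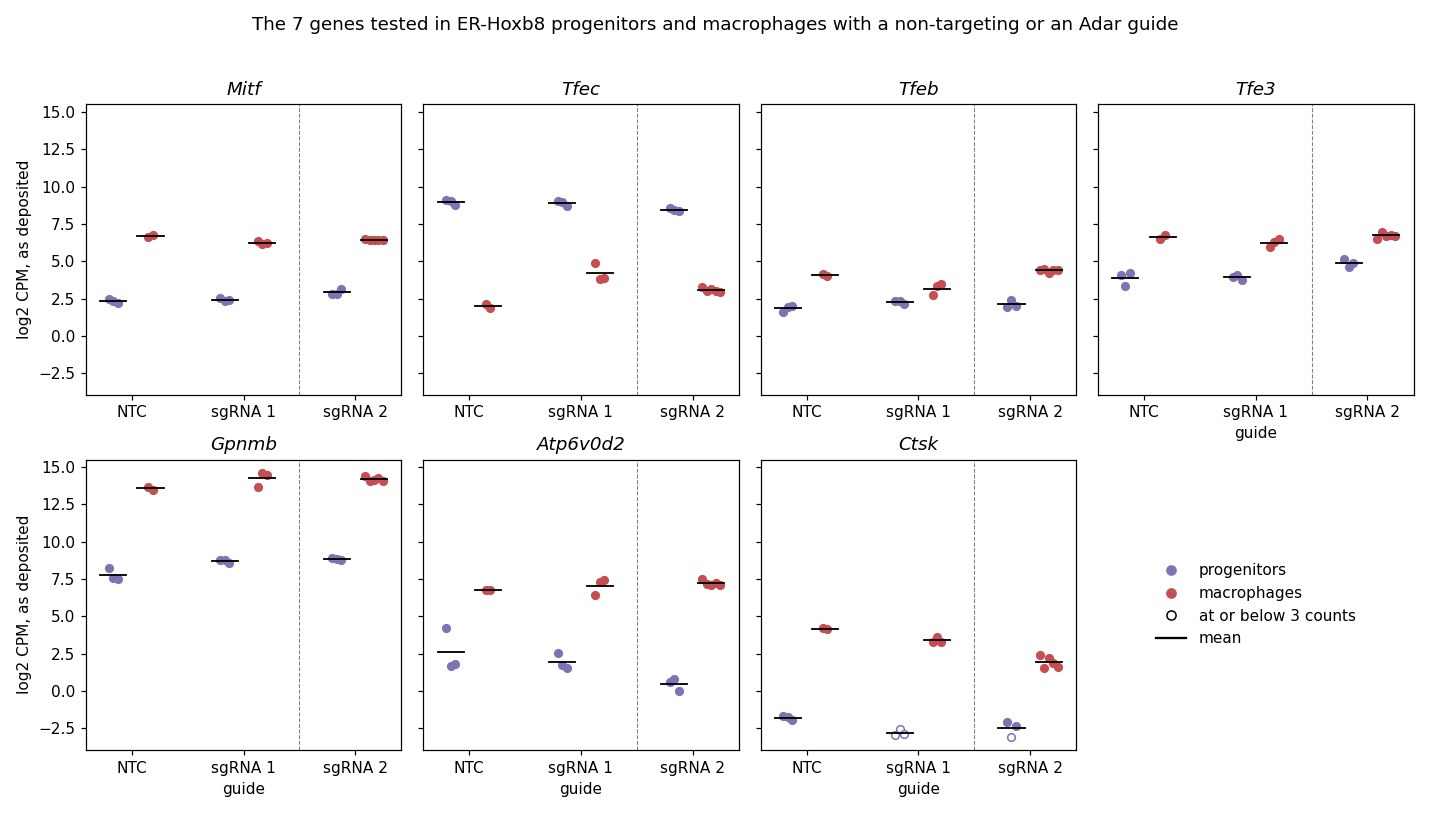
Log2 CPM of 7 genes in progenitors and macrophages with a non-targeting guide, sgRNA 1 or sgRNA 2, 1 point a library with a bar for the mean; sgRNA 2, right of the dashed line, belongs to another set. Tfec drops from 8.37 or more in progenitors to 4.85 or less in macrophages while Mitf goes from 3.15 or less to 6.14 or more.

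The guides were compared at each stage. The labels name no separate edited lines within a guide. The p values therefore cover spread between libraries, and a difference between guides may be one between edited lines. In progenitors limma called 0 of 7 genes with sgRNA 1 against NTC, where 0.936% of all genes were called. Gpnmb (0.91) and Ctsk had an unadjusted p below 0.05, as did 725 of 11008 genes in all. All sgRNA 1 progenitors were at or below 3 counts for Ctsk, with NTC at least 1.68-fold higher in mean CPM, and with progenitors alone it was not tested. In macrophages it called 3 of 7, with 21.8% of all genes called. Tfec was higher with sgRNA 1 by 2.17 (SE 0.26, adjusted p 1.10e-04), Mitf lower by -0.46 (SE 0.14, adjusted p 0.0381) and Tfeb lower by -0.91 (SE 0.24, adjusted p 0.0186). Mitf was not called without sgRNA 1 macrophage replicate 2 (adjusted p 0.124) or 3 (0.0869) or NTC macrophage replicate 1 (0.0999) or 3 (0.206), and Tfeb not without NTC macrophage replicate 1 (0.113) or 3 (0.0609). Leaving out either NTC library leaves 1 there, which is assumed to vary like the other groups. With replicate as a block Mitf did not pass either (-0.44, adjusted p 0.0512). Gpnmb, at 0.67 with an adjusted p of 0.10, passed without sgRNA 1 macrophage replicate 1 (0.95, adjusted p 0.0135). Under quantile scaling the median of all genes moved by -0.12 and the share of called genes that were higher went from 66.6% to 48.6%. The macrophage list was 4938 to 5529 CPM with sgRNA 1 and 8799 and 7829 CPM in the 2 NTC libraries. Border macrophage markers summed to 60.5 to 91.0 CPM against 771 and 632 CPM, and neutrophil markers to 69.2 to 82.8 CPM against 15.7 and 10.8 CPM. The part of these shifts in the values was not tested.

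The difference between the 2 guides in the step from progenitor to macrophage was tested as an interaction. Limma called 2 of 7 genes, where 13.6% of all genes were called: Tfec, which fell less with sgRNA 1 (2.25, SE 0.35, adjusted p 0.00122), and Tfeb, which rose less (-1.31, SE 0.32, adjusted p 0.0191). Without NTC macrophage replicate 1 the Tfeb difference had an adjusted p of 0.0726, the lone NTC macrophage library again being assumed to vary like the rest. Quantile scaling moved the median of all genes by -0.14 in this test, and the share of called genes that were positive from 72.7% to 57.0%. No NTC library shares a set with sgRNA 2, so that guide could not be set against NTC.

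In the baricitinib set the Gpnmb level of NTC macrophages was 12.37, 11.83 and 12.46 at 0 uM, 11.69, 11.49 and 11.39 at 0.0006 uM, 11.57, 11.18, 11.20 and 11.92 at 0.016 uM, 11.16, 10.60, 10.61 and 11.45 at 0.4 uM and 8.66, 8.05 and 9.75 at 10 uM. In KO macrophages it was 14.49, 13.74 and 13.66, then 13.95, 12.91 and 13.58, then 12.41, 12.58 and 13.56, then 10.73, 11.16 and 11.27, and at 10 uM 8.71, 6.62, 6.86 and 7.95. KO libraries lay above NTC at the 3 lowest doses and among them at 0.4 uM, and at 10 uM 3 of 4 lay below all NTC. Atp6v0d2 was 5.70, 5.56 and 6.10 in NTC at 0 uM, 4.65, 4.41, 4.49 and 4.85 at 0.4 uM and 1.51, 1.62 and 2.43 at 10 uM. In KO it was 7.86, 7.30 and 7.41 at 0 uM, 5.23, 4.21 and 5.58 at 0.4 uM and 3.84, 1.83, 1.60 and 3.27 at 10 uM. The 10 uM libraries were below all others of their genotype for both genes.

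Of the factors, Tfec was 1.43, 1.64 and 0.91 in NTC at 0 uM and 2.46, 2.48 and 2.19 at 10 uM; in KO it was 4.49, 4.45 and 4.31, then 3.20, 3.65 and 3.10 at 0.4 uM and 4.36, 4.14, 3.72 and 4.20 at 10 uM. KO was above NTC at every dose, and its 0.4 uM libraries were its lowest. Mitf was 6.11, 5.86 and 6.04 in NTC and 6.02, 5.90 and 5.93 in KO at 0 uM, and 5.32, 5.25 and 5.25 and 5.24, 4.91, 4.96 and 5.14 at 10 uM. KO at 0.4 uM gave 5.50, 6.62 and 5.44 for Mitf, replicate 2 being apart; its Adar level was apart too, 7.38 against 4.12 and 4.21. Tfeb was 4.19, 3.09 and 3.55 in NTC and 3.92, 3.91 and 3.58 in KO at 0 uM, and 2.05, 2.49 and 3.07 and 0.56, 1.54, 1.50 and 1.31 at 10 uM. Tfe3 was 6.69, 6.22 and 6.36 and 6.73, 6.52 and 6.53 at 0 uM, and 5.69, 5.76 and 5.66 and 3.55, 4.23, 4.43 and 4.21 at 10 uM. For both, KO at 10 uM stood below every other library of the set.

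Ctsk was 2.67, 2.32 and 2.89 in NTC and 3.01, 2.18 and 2.21 in KO at 0 uM, and 0.39, -0.74 and 0.59 and 1.23, -0.10, -1.10 and -0.59 at 10 uM. Dcstamp was at or below 3 counts in all 3 KO libraries at 0 uM and 0.82, 1.33 and 0.58 at 0.4 uM and 0.12, 1.05, -0.32 and 0.55 at 10 uM, while NTC held 0.49 in 1 of 3 libraries at 0 uM and -0.82, 0.20 and 0.62 at 10 uM. Acp5 and Ocstamp did not exceed -0.09 in any library of this set and were not tested, leaving 8 genes.

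**Figure D4:**
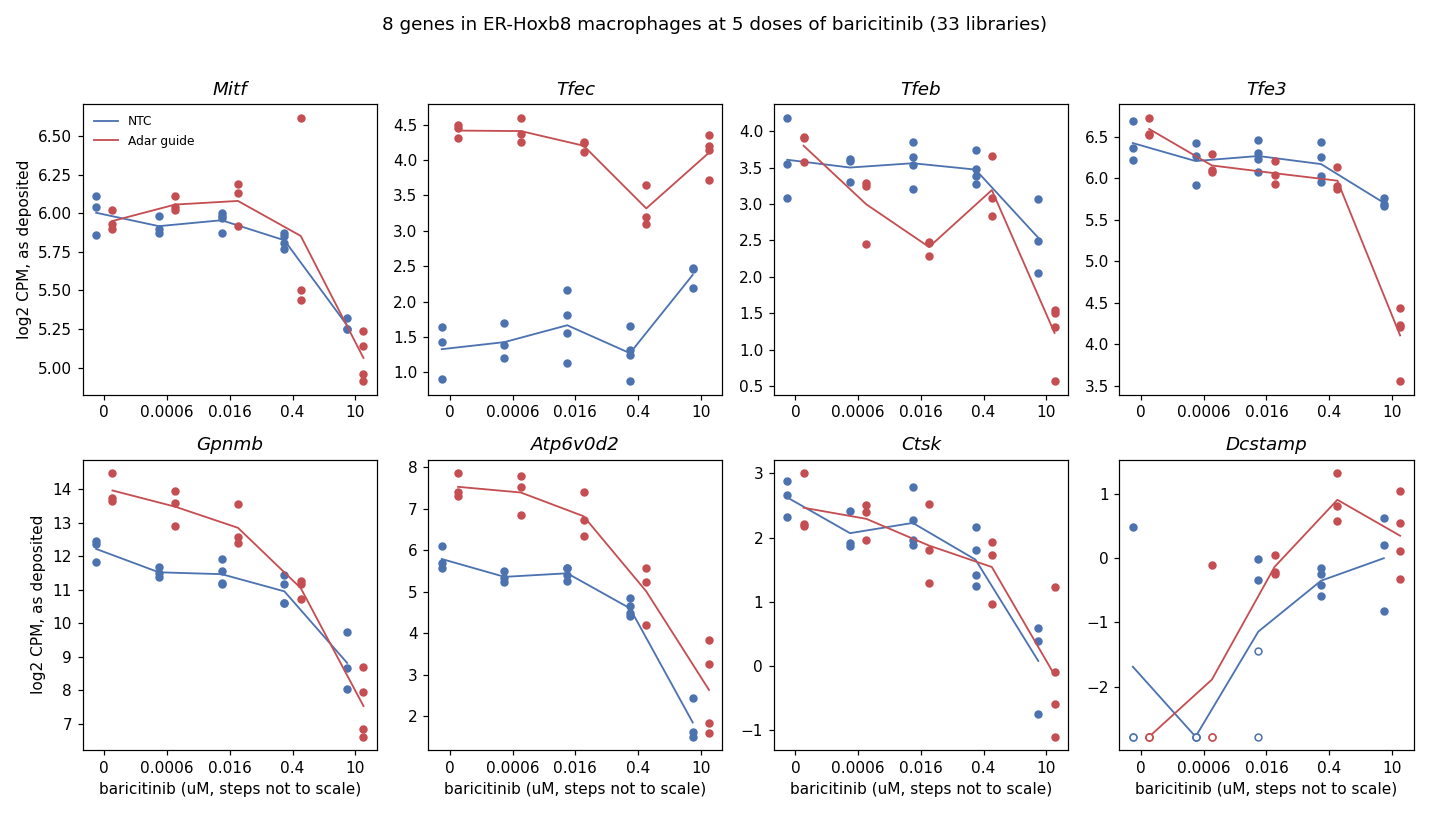
Log2 CPM of 8 genes against baricitinib dose in NTC and KO macrophages, 33 libraries, 1 point a library with lines through the group means. In KO, Gpnmb goes from 13.66 or more at 0 uM to 8.71 or less at 10 uM, and Dcstamp is at the floor at 0 uM and above it at 0.4 and 10 uM.

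At 0 uM the genotypes were compared first. Here too the labels name no separate edited lines within a genotype, so the p values cover spread between cultures only. Limma called 3 of 8 genes, with 25.3% of 11152 genes called: Tfec, higher in KO by 3.09 (SE 0.24, adjusted p 1.04e-10), Gpnmb by 1.74 (SE 0.43, adjusted p 0.00348) and Atp6v0d2 by 1.74 (SE 0.41, adjusted p 0.00240), each with no overlap of 3 and 3 libraries. In the separate set above Tfec was higher with this guide too, but Mitf and Tfeb were called lower there and differed by -0.05 and 0.20 here. Gpnmb (0.67) and Atp6v0d2 (0.30) were not called there. At 10 uM limma called 4 of 8, with 45.3% of all genes called. Tfec was higher in KO by 1.73 (adjusted p 3.64e-07), and Tfeb (-1.31, adjusted p 2.92e-04), Tfe3 (-1.60, adjusted p 6.73e-09) and Gpnmb (-1.29, adjusted p 0.0103) were lower, Gpnmb with overlap. The Gpnmb call was lost without NTC 10 uM replicate 3 (-0.82, adjusted p 0.129) or KO 10 uM replicate 2 (-0.98, adjusted p 0.0565). Atp6v0d2 was gained, at 1.05 to 1.12, without NTC replicate 3 or KO replicate 2 or 3. Marker lists differed by genotype as well. At 0 uM border macrophage markers summed to 89.5 to 98.3 CPM in KO and 48.4 to 63.6 CPM in NTC. At 10 uM the macrophage list was 2543 to 3103 CPM in KO and 3761 to 4078 CPM in NTC. The progenitor list was 10.8 to 14.3 CPM and 1.45 to 1.81 CPM there. Their part in the values was not tested.

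The drug was read within each genotype, 10 uM against 0 uM. In NTC limma called 7 of 8 genes, with 13.8% of all genes called. Gpnmb fell by 3.40 (SE 0.43, adjusted p 5.66e-06), Atp6v0d2 by 3.93 (SE 0.41, adjusted p 2.68e-07) and Ctsk by 2.55 (SE 0.45, adjusted p 3.79e-04). Mitf fell by 0.73 (adjusted p 0.00566), Tfe3 by 0.72 (adjusted p 0.00629) and Tfeb by 1.07 (adjusted p 0.0146), while Tfec rose by 1.05 (adjusted p 0.00407). Tfeb was not called without NTC 0 uM replicate 1 (adjusted p 0.129) or NTC 10 uM replicate 1 (0.103) or 2 (0.0532), nor Tfe3 without NTC 0 uM replicate 1 (0.0612). Dcstamp was called without NTC 0 uM replicate 2 (adjusted p 0.0106), the other 2 being at the lowest value.

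In KO limma called 7 of 8 genes at 10 uM, with 65.8% of all genes called. Gpnmb fell by 6.43 (SE 0.40, adjusted p 2.04e-13), Atp6v0d2 by 4.89 (SE 0.38, adjusted p 1.51e-11) and Ctsk by 2.60 (SE 0.42, adjusted p 4.05e-06). Tfeb fell by 2.57 (adjusted p 4.17e-09), Tfe3 by 2.49 (adjusted p 3.13e-13) and Mitf by 0.89 (adjusted p 2.11e-05). Dcstamp was called as well, its mean CPM being at least 4.99-fold higher; other doses carried it past the filter on low values, and with only these groups fitted it was not tested. Tfec did not pass (-0.31, adjusted p 0.220). The macrophage list was also lower in these cells, 2543 to 3103 CPM against 4783 to 5081 CPM at 0 uM, and in NTC 3761 to 4078 CPM against 4672 to 4765 CPM. Border macrophage markers went from 89.5 to 98.3 CPM down to 50.8 to 71.2 CPM in KO, and from 48.4 to 63.6 CPM down to 18.2 to 30.8 CPM in NTC. The progenitor list was 10.8 to 14.3 CPM in KO at 10 uM against 1.54 to 3.08 CPM. The microglia list was higher at 10 uM than at 0 uM in both genotypes, with no overlap. The part of these lists in the values was not tested.

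Whether the drug acted differently by genotype was tested as the difference of those differences. Limma called 4 of 8 genes, with 39.5% of all genes called: Gpnmb (-3.03, adjusted p 2.19e-04), Tfe3 (-1.77, adjusted p 1.63e-06) and Tfeb (-1.50, adjusted p 0.00395), which fell further in KO, and Tfec (-1.36, adjusted p 0.00157), which rose in NTC alone. Without KO 10 uM replicate 1, Atp6v0d2 was called too (-1.36, adjusted p 0.0347). For Mitf the difference was -0.16 (SE 0.23) and did not pass.

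The dose of 0.4 uM was tested in the same way. In NTC limma called 0 of 8 genes, with 0.00897% of all genes (1 gene) called. Gpnmb (-1.27), Atp6v0d2 (-1.18) and Ctsk (-0.97) had an unadjusted p below 0.05 and groups that did not overlap. In all, 598 of 11152 genes had such a p. In KO it called 5 of 8, with 26.6% of all genes called. Gpnmb fell by 2.91 (SE 0.43, adjusted p 1.41e-05), Atp6v0d2 by 2.52 (SE 0.41, adjusted p 5.20e-05), Tfec by 1.10 (adjusted p 0.00111) and Tfe3 by 0.62 (adjusted p 0.00797). Dcstamp was at least 7.36-fold higher in mean CPM (adjusted p 5.08e-04, or 0.0235 with only these groups fitted). It passed the filter on low values only through groups where it is high, so its call is a description. In that smaller fit 4 of 8 were called, Tfe3 (0.0635) not among them, with 3.84% of all genes. Without KO 0.4 uM replicate 2, Mitf (-0.48, adjusted p 4.19e-04) and Tfeb (-0.85, adjusted p 0.0381) were called as well. In KO border macrophage markers summed to no more than 38.0 CPM at 0.4 uM against 89.5 to 98.3 CPM at 0 uM. Neutrophil markers summed to 76.3 to 325 CPM against 54.0 to 67.6 CPM, and the dendritic cell list to 17.1 to 22.7 CPM against 8.04 to 14.6 CPM. The microglia list was also higher at 0.4 uM, with no overlap. Their part in the values was not tested. The genotypes were not tested against each other in this response.

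**Figure D5:**
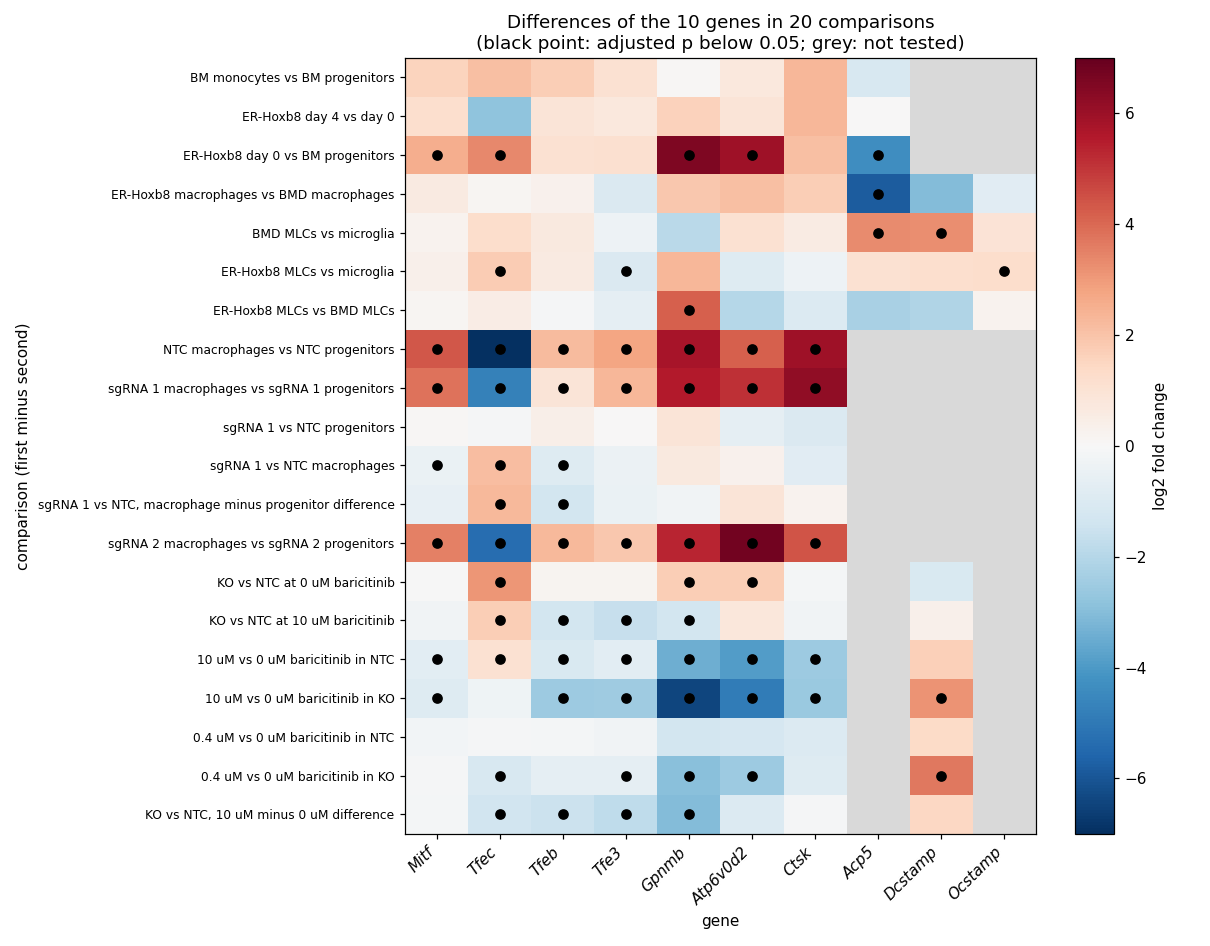
Log2 fold change of each of the 10 genes in the 20 comparisons, as a colour scale, with a black point where the adjusted p is below 0.05 and grey where the gene was not tested. Gpnmb and Atp6v0d2 are positive from progenitor to macrophage and negative from 0 to 10 uM baricitinib, down to -6.43 for Gpnmb in KO.

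Other genes of the same pathways were read from lists, given by how many were called in each direction and by their median beside the median of all genes. The lists overlap: Flcn, Fnip2, Mcoln1 and Rragd count both as regulators and as targets of the family. Tcirg1 and Atp6v1c1 are both V-ATPase subunits and osteoclast effectors, and Ctsb, Atp6v0d1, Trem2 and Cd9 also stand on 2 lists each. From NTC progenitors to macrophages (median of all genes -0.08), 16 of 18 targets of the MITF family were higher and 0 lower, with a median of 1.80. Ctsb (5.90), Psap (5.76) and Ctsd (4.94) were the largest. Of 14 regulators of the family at the lysosome, 7 were higher and 3 lower (median 0.74), with Fnip2 at 4.05, Flcn at 1.74 and Rragb at -1.90. Of 17 other V-ATPase subunits, 14 were higher and 1 lower (median 1.10), led by Atp6v1a (2.48).

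In the same step 12 of 16 genes of osteoclast signalling were higher and 2 lower (median 3.21), Csf1r (8.36) and Trem2 (8.34) among the largest. Of 10 osteoclast effectors 7 were higher and 2 lower (median 1.61), Adam8 (7.21) and Mmp9 (6.97) first. Of 8 paralogs of the genes, such as Ctss (7.46), 6 were higher and 1 lower (median 1.53), and of 12 lipid and lysosome genes often measured with Gpnmb, 9 were higher and 0 lower (median 4.65), among them Lgals3 (6.92). In that comparison 71.8% of genes were called, 3643 of them higher and 4258 lower. Whether the lists differ from this broad change was not tested.

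From BM progenitors to ER-Hoxb8 day 0 (all-gene median -0.08, 25.5% of genes called), 10 of 19 targets were higher and 1 lower (median 2.06). V-ATPase subunits had 13 higher and 0 lower of 17 (median 1.62). Of 15 regulators 6 were higher and 0 lower (median 0.80), of 7 paralogs 2 and 0 (1.24) and of 12 lipid and lysosome genes 4 and 0 (2.60). Osteoclast signalling had 1 higher and 1 lower of 14 (median 0.08), and osteoclast effectors 4 higher and 3 lower of 13 (0.55). At 0 uM, KO against NTC (all-gene median -0.02, 25.3% of genes called), 11 of 18 targets were higher and 1 lower (median 0.55), Psap at 1.73 and Ctsd at 1.08, and 8 of 17 V-ATPase subunits were higher and 1 lower. In the separate set, sgRNA 1 against NTC macrophages (all-gene median 0.05, 21.8% called), 1 of 18 targets was higher and 2 lower (median -0.20). There V-ATPase subunits had 5 higher and 0 lower of 17 (median 0.23), osteoclast effectors 3 and 0 of 10 (0.61) and osteoclast signalling 0 and 2 of 16 (-0.00). At 0 uM osteoclast signalling had 0 of 16 higher and 3 lower (median 0.14), among the latter Tnfrsf11a, the receptor for RANKL (-1.58), and Fos (-0.91). Osteoclast effectors had 3 higher and 1 lower of 9 (median 0.09), and the lipid and lysosome genes 2 higher and 3 lower of 12 (median -0.05).

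With 10 uM baricitinib in NTC (all-gene median -0.00, 13.8% of genes called), 0 of 18 targets were higher and 8 lower (median -0.46), with Fnip2 at -1.33, Ctsd at -1.18 and Flcn at -0.90. V-ATPase subunits had 0 higher and 6 lower of 17, and the lipid and lysosome genes 0 higher and 9 lower of 12 (median -0.75), led by Fabp4 (-3.05). Osteoclast signalling had 3 higher and 2 lower of 16 (median -0.03), effectors 0 and 4 of 9 (-0.42), paralogs 0 and 2 of 8 (-0.68) and regulators 0 and 2 of 14 (-0.02). In KO (all-gene median 0.05, 65.8% of genes called), 1 of 18 targets was higher and 13 lower (median -1.95), with Ctsd at -4.39, Psap at -3.52 and Flcn at -2.86. V-ATPase subunits had 2 higher and 10 lower of 17 (median -0.44), with Tcirg1 at -3.01. Osteoclast effectors had 2 higher and 7 lower of 9 (median -1.46), with Clcn7, the chloride exchanger of the acid compartment, at -3.12. Osteoclast signalling was mixed, 4 higher and 6 lower of 16, Tnfrsf11a being higher by 1.99. Regulators had 6 higher and 3 lower of 14 (median -0.03), paralogs 1 higher and 5 lower of 8 (median -1.32) and the lipid and lysosome genes 1 higher and 9 lower of 12 (median -1.10). At 0.4 uM in KO, with 26.6% of genes called, 0 of 18 targets were higher and 13 lower (median -0.75), 0 of 17 V-ATPase subunits were higher and 6 lower, and osteoclast signalling had 3 higher and 1 lower of 16 (median 0.23). In the test of the difference between genotypes, with 39.5% called, 1 target was higher and 11 lower (median -1.33), and osteoclast signalling had 4 higher and 3 lower of 16 (median -0.25).

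The genes whose levels ran most like 3 of the set were listed over the 27 libraries of cultured macrophages and cells from brain, which fall into a culture cluster and a brain cluster, so the values mostly restate that split. Among 12518 genes, Pearson r with Gpnmb was highest for Lpl (0.949), Gm7887 (0.940), Stac2 (0.940), Akr1a1 (0.939) and Lipa (0.938). For Atp6v0d2 it was highest for Sdc1 (0.948), Nagk (0.924), Gstm2 (0.916), Ctsb (0.913) and Cpeb1 (0.909). For Mitf it was Fnip2 (0.940), Soat1 (0.901), Sdc1 (0.895), Fblim1 (0.892) and Gas2l3 (0.891). Gpnmb and Atp6v0d2 had an r of 0.86 over all 27 libraries and 0.31 after each group's mean was taken off, and Mitf and Gpnmb 0.82 and -0.08. Of the pairs listed, Mitf and Fnip2 had the highest r within groups (0.74). The others ran from 0.02 (Atp6v0d2 and Gstm2) to 0.64 (Gpnmb and Stac2).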

How the data were processed

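The authors aligned reads to GRCm39 transcripts with kallisto 0.46.0 and normalized with TMM. The deposited values are log2 CPM (counts scaled to library totals after that adjustment). The CPM of a library therefore summed to between 706426 and 1389963. CPM and counts were recovered from them with an assumed prior count of 2. The 10 genes, the gene lists and the marker lists were chosen with earlier results of these data known. Libraries sharing 1 lowest value were fitted together, a mean per group, with limma 3.58.1 (R 4.3.3, eBayes with trend), over genes above 1 CPM in at least 3 libraries (6 in the set with brain). Benjamini-Hochberg adjustment covered all genes tested, and below 0.05 counts as called. From each list, per comparison, up to 3 called genes with the largest change could be named. Where at least 3 numbers were shared, replicate numbers paired samples (every r above 0.1) only for ER-Hoxb8 day 4 against day 0 and for sgRNA 1 against NTC progenitors, and a replicate block changed no call there. The guides in macrophages shared 2 numbers (r 0.15 and 0.16), and the block took Mitf to an adjusted p of 0.0512. Alternatives were quantile scaling, log2(CPM + 1), a fold limit, no filter, array weights, a replicate block, smaller fits and leaving out each library. Tables and figures used Python 3.11.15, numpy 2.4.6, pandas 2.3.3 and matplotlib 3.10.9. Values of some list and marker genes are not reported here.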

Additional observations from a re-analysis of the deposited data

Results flagged for a closer look

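Within groups of 4 to 10 libraries, 70 sets of values of the 10 genes were checked for a library far from the rest by the ratio of its gap to the range, and 10 values in 9 libraries were so. Chance alone gives about 1 in 20 groups. In microglia, Mitf was low in replicate 2 (3.78), Tfec high in replicate 8 (3.61) and Tfeb at the lowest value in replicate 8 (-3.62). In MLCs, Gpnmb was -2.33 in BMD MLC replicate 5, Atp6v0d2 -1.68 in ER-Hoxb8 MLC replicate 1 and Ctsk 2.62 in ER-Hoxb8 MLC replicate 6. In sgRNA 2 macrophages, Atp6v0d2 was 7.51 in replicate 1 and Ocstamp -2.92 in replicate 5. With baricitinib in NTC, Acp5 was -1.70 in replicate 1 at 0.016 uM and -2.22 in replicate 1 at 0.4 uM. For 4 of the 10 (Gpnmb in BMD MLC replicate 5, Ctsk in ER-Hoxb8 MLC replicate 6 and both Acp5 values) all other libraries sit at 1 lowest value, so any other value stands apart and the rate of 1 in 20 does not apply. Several of these lie close to 3 counts, where 1 or 2 counts move a log2 value far.

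In 6 cases an effect differed between groups by its own test in limma. The step from progenitor to macrophage differed between sgRNA 1 and NTC for Tfec (2.25) and Tfeb (-1.31). The response to 10 uM baricitinib differed between KO and NTC for Tfec (-1.36), Tfeb (-1.50), Tfe3 (-1.77) and Gpnmb (-3.03).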

How the results depend on the processing

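Over the single genes, the alternatives gave 2364 values on the same side of the threshold, 71 that newly passed, 75 that no longer passed and 0 called values that turned round. Of the 2364, 60, not called either way, had the opposite sign to the first fit, such as Atp6v0d2 at day 4 against day 0 (0.91, and -1.36 without day 0 replicate 3). Numbers of genes called that moved by more than 1.5 times are given first, and the cause was not tested.

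Quantile scaling gave 3 for BM monocytes against BM progenitors (22.5%) and 1 for sgRNA 1 against NTC progenitors (1.02%). Array weights gave 6 for the monocytes (with 43.6% of all genes called), 4 for ER-Hoxb8 against BMD macrophages (18.3%), 6 for BMD MLCs against microglia (41.4%), 1 for ER-Hoxb8 MLCs against microglia (37.0%), 2 between the MLCs (23.0%) and 2 for 0.4 uM in NTC (2.06%). The replicate block gave 1 for the monocytes (1905 of 12056 genes called) and 1 for ER-Hoxb8 MLCs against microglia (4417 of 12518). Fitting only the groups compared gave 5 for the monocytes (34.1%), 3 for day 0 against BM progenitors (16.8%, Mitf and Atp6v0d2 being lost) and 1 for 0.4 uM in NTC (0.443%). It gave 0 for ER-Hoxb8 against BMD macrophages (13 of 9308 genes called) and 0 between the MLCs (1416 of 11379). There Acp5 and Gpnmb, in that order, called in the larger fit, did not reach the filter and were not tested. The same holds for Ctsk between NTC macrophages and progenitors and Dcstamp for 10 uM in KO.

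Without a filter 1 was called for BMD MLCs against microglia (2693 of 22262 genes) and 1 for the guide interaction (1046 of 27089). On log2(CPM + 1) 0 were called between the MLCs (2007 of 12518 genes). A limit of 2 on the log2 change left 0 for ER-Hoxb8 MLCs against microglia (2040 of 12518 genes called). It left 1 for sgRNA 1 against NTC macrophages (442 of 11008) and 1 for the guide interaction (461 of 11008). Of 11152 genes in the baricitinib set, 432 were left for KO against NTC at 0 uM and 350 at 10 uM, with 1 and 0 of the 10. It left 3 for 10 uM in NTC (93 genes), 3 for 0.4 uM in KO (215) and 1 for the drug interaction (793). With the first series of ER-Hoxb8 MLCs alone 1 was called against microglia (3303 of 12339 genes) and 2 between the MLCs (1762 of 12339). With the second it was 5 (4351 of 12352) and 2 (2058 of 12352). Adding NTC macrophage replicate 2 gave 5 for the guides in macrophages (3322 of 11098 genes called).

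Other counts moved less but changed their genes. The replicate block lost Mitf in sgRNA 1 against NTC macrophages (adjusted p 0.0512), and in BMD MLCs against microglia it lost Acp5 (0.0719) and gained Tfec (0.0490). Quantile scaling added Ctsk at day 0 against BM progenitors (3.98, 0.0251) and in sgRNA 1 against NTC macrophages (-0.88, 0.0468), and Gpnmb in ER-Hoxb8 MLCs against microglia, where it is only descriptive. On log2(CPM + 1) the last was added too, as was Ctsk for the guides in macrophages (0.00763). Without a filter Atp6v0d2 at day 0 (0.0622) and Tfeb for the guides in macrophages (0.0514) were lost. Fitting only the groups compared lost Ocstamp in ER-Hoxb8 MLCs against microglia (0.0802), Gpnmb for KO against NTC at 10 uM (0.0548), Tfeb for 10 uM in NTC (0.0563) and Tfe3 for 0.4 uM in KO (0.0635). It added Ocstamp in BMD MLCs against microglia (0.0384) and Ctsk for the guides in macrophages (0.0327). Without microglia replicates 8 and 9 together Tfe3 was lost in ER-Hoxb8 MLCs (-0.76, 0.0589) and Tfec gained in BMD MLCs (1.43, 0.0244). Array weights added 22 values and took away 2 over all comparisons.

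With each library dropped in turn, the count ran 0 to 0 for the monocytes, 0 to 5 for day 4 against day 0, 4 to 8 for day 0 against BM progenitors, 0 to 1 for ER-Hoxb8 against BMD macrophages, 1 to 2 and 1 to 4 for BMD and ER-Hoxb8 MLCs against microglia and 1 to 1 between the MLCs. It was 7 to 7 for macrophages against progenitors with each guide, 0 to 0 and 1 to 4 for sgRNA 1 against NTC in progenitors and macrophages and 1 to 2 for their interaction. With baricitinib it was 3 to 3 and 4 to 5 for KO against NTC at 0 and 10 uM, 5 to 8 and 7 to 7 for 10 uM in NTC and KO, 0 to 0 and 5 to 7 for 0.4 uM and 4 to 5 for the interaction. The share of all genes called is not printed beside these ranges, so they are not read as results about the genes. Depth limits Acp5, Dcstamp, Ocstamp and Ctsk, which lie near 3 counts in many groups.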
